A study of Mus musculus with 6 samples.

Results

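The skeletal muscle beside the bone marrow of a P8 mouse femur was taken as all segmented cells with at least 5 transcripts summed over Ttn, Myoz1, Myoz2, Pygm, Actn3, Trdn, Sypl2 and Pvalb. This rule selected 3608 cells of the 52594 in the section (6.86%), and of 521938 cells in all 6 sections of the series. The cells were thus chosen by their measured counts of these 8 genes, so the levels of the 8 genes describe the selection and are no result. Each section came from wild-type mice and was 5 µm thick: E14.5 and E13.5 fetal liver, P8 bone marrow, bone marrow at 89 weeks, untreated adult spleen, and spleen after phenylhydrazine (PHZ), which destroys red cells. The P8 femur was fixed in formalin, embedded in paraffin and imaged by Xenium in situ hybridization, which counts single transcripts of a fixed gene panel inside cell outlines, here 477 genes. With 1 section and no second animal at this age, no replicate check of any difference was possible. Intervals are therefore 95% counting intervals (exact Poisson or binomial) that cover counting error only.

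Skeletal muscle consists of long fibers that each hold many nuclei and a regular array of sarcomeres, the contractile units. Calcium released from the sarcoplasmic reticulum starts contraction, and fast fibers draw on glycogen while slow fibers rely more on mitochondria. In the first weeks after birth the limb muscles of the mouse are still growing and sorting into these fiber types. Because the outlines in this section were grown from nuclei stained with DAPI, 1 outline stands for the surroundings of 1 nucleus and not for a fiber, and it can take in the satellite cells, capillaries and connective tissue that lie between fibers. A cell in the following is such an outline.

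The 8 genes of the rule encode parts of 3 machines of the fiber. Among the sarcomere genes, Ttn, the giant spring protein of the sarcomere, had 13.7 counts per muscle cell (13.6 to 13.9) and was seen in 98.4% of the muscle cells. Actn3, the alpha-actinin of fast fibers, had 6.10 counts per muscle cell. Myoz1 and Myoz2, which bind calcineurin at the Z-disc in fast and slow fibers, had 1.74 and 1.96 counts per cell. For calcium handling, Trdn, which anchors the calcium store at the release sites, had 3.83 counts. Sypl2, a membrane protein of the triad, had 3.17 counts and Pvalb, the calcium buffer of fast fibers, had 5.02. For fuel, Pygm, muscle glycogen phosphorylase, had 7.26 counts per cell. The muscle cells held between 95.3% (Pygm) and 97.4% (Ttn) of the in-cell counts of each of these genes in the section. All 8 genes were detected together in 34.7% of the muscle cells, and at least 4 of them in 94.5%.

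Promoters of the rule genes are shown as a description only, since the cells were chosen on the sum of these genes. RefSeq promoter windows (GRCm38.p6, from 250 bases before to 50 bases after a start) were available for 5 of the 8 genes, with 6 starts; Myoz1, Actn3 and Trdn had no entry. The E-box CAGCTG, a motif that myogenic factors are known to bind and which reads the same on both strands, stood in the windows of 3 of these genes, Myoz2, Pygm and Sypl2. The core CATTCC of the MCAT motif, searched on both strands and never overlapping the E-box in these windows, stood in the window of 1 gene, Ttn. Of all 32851 promoter windows, 16.3% held CAGCTG and 14.7% held CATTCC, so a match is a description of these letters and not of a bound site. The 250 bases before the starts of Pygm (chromosome 19, plus strand, chr19:6384158-6384407) and Myoz2 (chromosome 3, minus strand, chr3:123034988-123035237) read as follows, 5′ to 3′ along the gene, with CAGCTG in capitals.
Pygm: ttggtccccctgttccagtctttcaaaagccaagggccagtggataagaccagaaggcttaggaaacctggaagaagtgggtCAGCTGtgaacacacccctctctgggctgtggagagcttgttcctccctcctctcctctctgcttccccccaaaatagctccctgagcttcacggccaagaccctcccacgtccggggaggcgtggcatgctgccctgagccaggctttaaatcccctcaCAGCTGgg
Myoz2: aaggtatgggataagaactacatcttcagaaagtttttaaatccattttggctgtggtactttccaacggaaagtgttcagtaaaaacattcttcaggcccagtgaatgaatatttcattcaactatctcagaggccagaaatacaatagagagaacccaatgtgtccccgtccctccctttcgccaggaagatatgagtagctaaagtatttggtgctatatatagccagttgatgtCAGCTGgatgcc
The nearest E-box began 8 bases before the start of Pygm and 12 bases before that of Myoz2.

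The threshold cut through a thin tail. No rule transcript was counted in 45286 cells, and 2786 cells had 1. Just outside the threshold, 174 cells had 4 summed counts, and just inside it 120 cells had 5, whereas the median muscle cell had 32 (quartiles 16 and 56) and the highest 403. The 16 muscle genes that the rule did not use rose along the same scale, from 1.18 counts per cell at 0 rule counts over 3.74 at 4 and 5.38 at 5 to 9, to 67.7 at 100 or more. Col1a1, the main chain of type I collagen, rose from 4.00 counts per cell at 0 rule counts to 22.2 at 4. It was then 11.5 at 10 to 19 and 34.0 at 100 or more. Slc4a1, the anion exchanger of red cells, was at 6.04 counts in cells without a rule transcript and between 0.256 and 0.557 in the 5 ranges above the threshold.

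**Figure D1:**
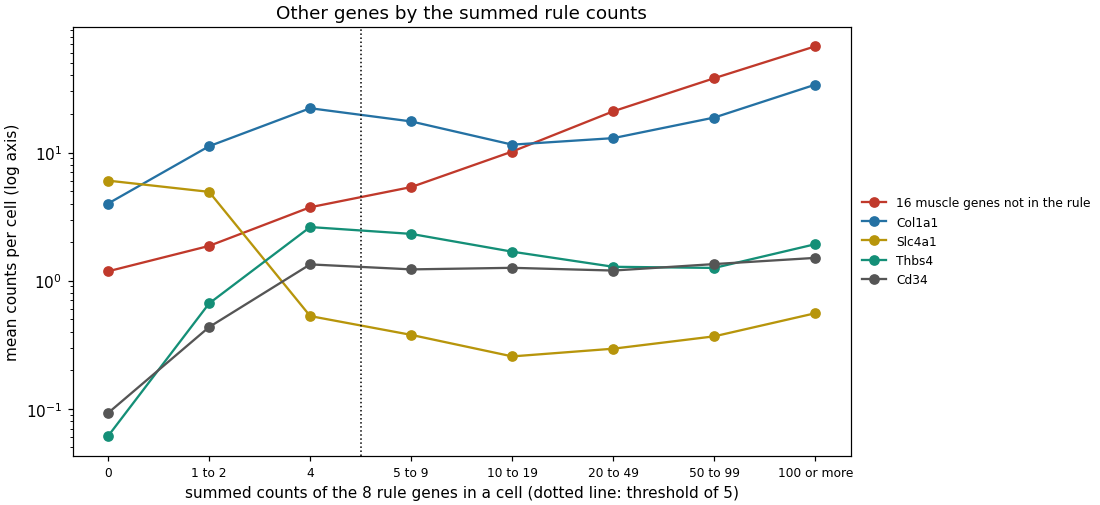
Mean counts per cell (y, log axis) of 16 muscle genes outside the rule, Col1a1, Slc4a1, Thbs4 and Cd34 against the summed counts of the 8 rule genes (x, ranges of cells; the dotted line is the threshold of 5). The other muscle genes climb from 1.18 to 67.7 counts per cell, while Cd34 stays between 1.20 and 1.51 in all ranges above the threshold.

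The muscle cells had larger outlines and more counts than the median other cell. They had a median of 155 gene counts (quartiles 104 and 228), of which 118 were from genes outside the rule, against 107 in the other 48986 cells. Their outlines covered a median of 120 µm², against 48.0 µm² in the median other cell. The median outline was 106 µm² in cells gated on type I collagen and 271 µm² in cells gated on cartilage markers. Muscle nuclei were smaller than those of the median other cell, at 17.7 µm² against 22.3 µm². The median nucleus was 19.1 µm² in the collagen gate and 24.6 µm² in the cartilage gate. The nucleus thus filled 15.1% of the outline in the median muscle cell and 52.2% in the median other cell. It filled 18.3% in cells gated on type I collagen and 8.95% in those gated on cartilage markers. Per 100 µm² of outline, the median was 135 gene counts in muscle and 250.3 in other cells, with 120 in the collagen gate and 34.1 in the cartilage gate. The 20 negative control probes gave 0.0111 counts per muscle cell in sum and 0.00425 per other cell, and the part of area and depth in these was not tested. Levels are therefore given below as CPM, counts per 1000000 counts of genes outside the rule, since the rule genes alone made up 23.6% of the transcripts in the muscle cells.

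Of 447 genes outside the rule with at least 100 counts in the section, 123 (27.5%) were at least 2-fold higher in the muscle cells than in all other cells and 180 (40.3%) at least 2-fold lower. Among them, 13 of the 16 other muscle genes were higher and 1 was lower, with a median ratio of 38.1 against 0.686 over all 447 genes. The list of 16 was chosen with earlier results of these data known, so its shares here and below are descriptions only. Scaling over all panel genes, rule genes included, shifted the median by -0.39 on the log2 scale and changed the split to 96 higher and 220 lower, so that 30.4% in place of 40.6% of the called genes were higher. With 1 section these are counts past a fold and not test results.

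Of the 4 contractile and structural genes outside the rule, 3 were at least 2-fold higher, against 27.5% of all 447 genes. Des, the intermediate filament that ties sarcomeres together, had 6.70 counts per muscle cell (6.62 to 6.79) and 0.0254 per other cell, a CPM ratio of 225 (213 to 239). Cryab, a small heat shock protein that guards desmin and titin, had 2.66 and 0.0575 counts, a ratio of 39.5 (37.9 to 41.2). Tnnc1, the troponin C of slow fibers and the heart, was seen in 25.4% of the muscle cells, with a ratio of 74.9 (68.2 to 82.5). Mylk3, the myosin light chain kinase of the heart, was the 1 gene of the 16 on the lower side, with 0.0532 counts per muscle cell and 0.437 per other cell, a ratio of 0.104 (0.0897 to 0.120).

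The genes of calcium storage differed from each other. Hrc, a calcium-binding protein inside the sarcoplasmic reticulum, had 3.39 counts per muscle cell against 0.0235, a ratio of 124 (116 to 131). Pln, which restrains the calcium pump in slow fibers and the heart, had 37 counts in all muscle cells together, and its ratio of 1.16 (0.806 to 1.63) was not distinguishable from 1 at this depth.

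Of the 7 fuel and mitochondrial genes outside the rule, 6 were at least 2-fold higher, where the share over all genes was 27.5%. Pgam2, the muscle phosphoglycerate mutase of glycolysis, stood at 2.71 counts per muscle cell and 0.00992 per other cell (ratio 234, 213 to 257). Cox8b, a muscle subunit of cytochrome c oxidase, had 0.391 counts per muscle cell and a ratio of 218 (173 to 279). Car3, a carbonic anhydrase of slow muscle and fat, had 4.09 counts and a ratio of 36.6 (35.4 to 37.9). Ppp1r1a, an inhibitor of protein phosphatase 1, was 27.5-fold higher, and Ppargc1a, the coactivator that drives mitochondrial biogenesis, was 17.3-fold higher (15.5 to 19.3). Ldhb, the lactate dehydrogenase subunit of oxidative tissue, was 4.35-fold higher (4.04 to 4.69). Ndufs8, a subunit of respiratory complex I found in most cells, stayed under the fold at 1.83 (1.77 to 1.90).

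The other 3 genes of the 16, Myf6, Aqp4 and Mustn1, belong to none of these groups and were all at least 2-fold higher. Myf6, a muscle-restricted transcription factor of the MyoD family, was seen in 37.6% of the muscle cells and 0.380% of the others, a ratio of 140 (121 to 164). Aqp4, the water channel of the fast fiber membrane, was 66.1-fold higher (57.3 to 76.5), and Mustn1, a small nuclear protein of the musculoskeletal system, 23.0-fold (21.6 to 24.4).

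Outside these lists, the 10 genes with the highest ratios among those with at least 500 counts were Gamt, Gatm, Fxyd1, Cav1, Aqp7, Prox1, Chodl, Pnmal2, Aif1l and Thbs4. Gamt and Gatm, the enzymes that together make creatine, were 39.9-fold (36.9 to 43.2) and 11.2-fold (10.9 to 11.5) higher. Fxyd1, a regulator of the sodium pump, was 14.7-fold higher, and Cav1, which shapes caveolae, 14.1-fold. Aqp7, a channel for glycerol, was 14.6-fold higher. Prox1, a transcription factor of slow fibers and of lymphatic endothelium, was seen in 9.42% of the muscle cells and 21.4-fold higher (18.2 to 25.3). Chodl, a membrane lectin, was 21.2-fold higher, Pnmal2 26.1-fold and Aif1l 11.1-fold. Thbs4, a thrombospondin of tendon and muscle matrix, was 10.7-fold higher (10.4 to 11.1). These intervals cover counting error only: over the other settings tried, Thbs4 ranged from 5.02 to 19.4 and Cav1 from 7.19 to 26.1, and 20 of the 26 genes named by their ratio here moved by over 1.5 times. Among the cells bordering the muscle, described below, Thbs4 was at 14705 CPM, above its 11057 CPM in the muscle cells. Chodl was at 1648 CPM there and at 2109 CPM in the muscle cells.

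**Figure D2:**
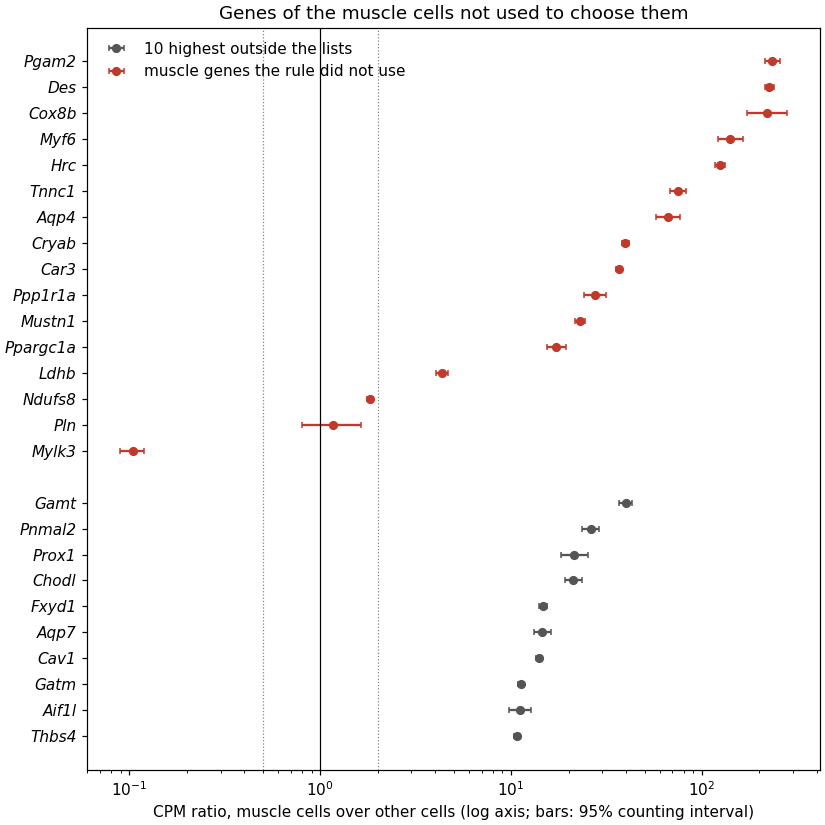
CPM ratio of muscle cells over other cells (x, log axis) for 16 muscle genes that the rule did not use and for the 10 other genes with the highest ratios (y); points are ratios of summed counts in 1 section and bars 95% counting intervals. Pgam2, Des and Cox8b lie above 200, Pln spans 1 and Mylk3 lies at 0.104.

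The 10 lowest genes by the same rule were mostly genes of blood cells. Ctse had 0.0366 counts per muscle cell and 2.64 per other cell, a ratio of 0.0118 (0.00991 to 0.0141). Car2, the carbonic anhydrase of red cells, had a ratio of 0.0356, and Gata1, the erythroid transcription factor, one of 0.0223. Slc14a1, the urea transporter of red cells, was at 0.0182, and Pglyrp1, Cxcr2 and Mrgpra2a, which are neutrophil genes, were between 0.0301 and 0.0348. Bst1, Lipg and Slamf7 were between 0.0236 and 0.0284, on 15, 2 and 8 counts in the muscle cells. The interval for Lipg ran from 0.00294 to 0.0881.

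Marker lists of other cell types showed what else the outlines held, and their counts stand beside 40.3% lower and 27.5% higher genes over all 447. All 8 erythroid, all 9 neutrophil and all 5 cartilage markers were at least 2-fold lower, with S100a9 at a ratio of 0.0283 and Acan at 0.111, but none of them was at 0 counts in the muscle cells. The summed erythroid list stood at 1.65 counts per muscle cell and 22.4 per other cell, the neutrophil list at 0.182 and 4.39, and the cartilage list at 0.635 and 5.70. Connective tissue genes were on the other side: Col1a1 and Col1a2 were 2.98-fold and 3.02-fold higher, and 6 of 8 fibroblast markers were at least 2-fold higher, led by Mfap5 at 9.59 and Dpt at 8.83. Of the markers of the cells around capillaries, 6 of 7 were higher, among them Rgs5 at 7.62 (7.30 to 7.96), and of the endothelial markers 5 of 9, among them Gpihbp1, which holds lipoprotein lipase on capillaries, at 5.33 (5.03 to 5.64). Of 9 macrophage markers, 2 were higher, Cd163 at 4.04 and Folr2 at 4.25, while C1qa was at 0.813 and Adgre1 at 0.622, and this count was not above the 27.5% of all genes. The 2 megakaryocyte markers, at 0.383 counts per muscle cell and 0.777 per other cell, included 1 lower gene.

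Such transcripts were common in the outlines. At least 5 counts of 1 or more other lists were present in 96.3% of the muscle cells (95.6 to 96.9%), mostly through type I collagen, of which 94.1% held at least 5 counts. Fibroblast markers reached 5 counts in 45.2%, endothelial markers in 21.7% and perivascular markers in 14.5% of the muscle cells. In 1153 muscle cells (32.0%) another list had more counts than the 8 rule genes, and the collagen pair alone exceeded them in 1093 cells. The part of neighboring cells in these counts was not tested. The reference was also narrowed to the 17432 other cells with at least 5 counts of Col1a1 and Col1a2, an alternative chosen after seeing the data. Of the 358 genes with at least 100 counts over the muscle cells and these cells together, 85 were higher and 134 lower. Against these cells Des was still 115-fold higher (108 to 122), Hrc 78.1-fold, Thbs4 5.02-fold and Gpihbp1 3.30-fold.

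The muscle cells were clustered in space. Cells were called neighbors when Delaunay triangulation of their centers joined them over at most 400 µm. Of the neighbor positions of muscle cells, 88.0% were muscle cells themselves, although muscle cells made up 6.86% of all others, compared with 85.9% for cells gated on cartilage markers and 68.3% for cells gated on type I collagen, whose shares of the section were 8.60% and 14.2%. All neighbors were muscle cells for 66.8% of the muscle cells, and 1.36% had none.

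Linked by edges of up to 30 µm, 3332 muscle cells (92.4%) fell into 6 patches of at least 100 cells. The patches held 1794, 596, 297, 263, 259 and 123 cells and are numbered in this order; 221 further cells lay in 28 smaller groups and 55 were alone. Patch 1 was 840 µm wide and 452 µm high. The median distance to the nearest cell gated as erythroid was 103 µm in patch 6, 123 µm in patch 5, 152 µm in patch 3 and between 314 and 467 µm in the others. Patches 4 and 5 lay closest to cartilage, with medians of 128 and 146 µm, and patch 2 farthest at 1239 µm.

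**Figure D3:**
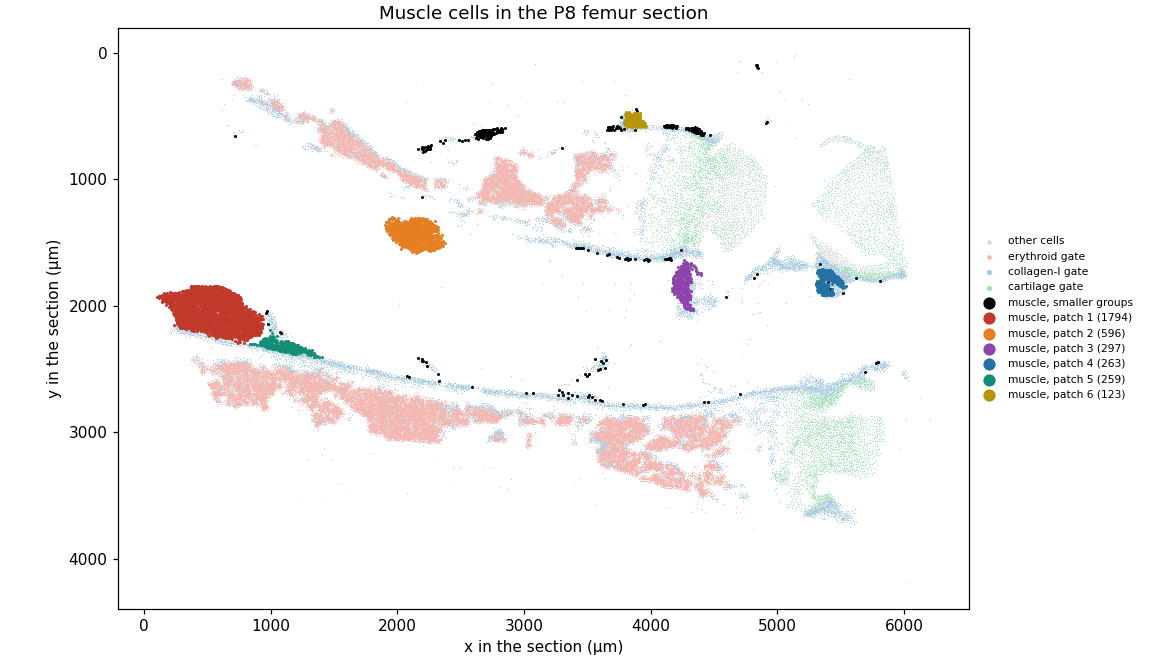
Positions of all 52594 cells of the section (x and y in µm), with muscle cells colored by patch, smaller muscle groups in black, and cells gated on erythroid, type I collagen or cartilage markers in pale colors. The 6 patches, of 123 to 1794 cells, lie outside the erythroid marrow.

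The muscle genes were above the other cells in each patch, but their mix varied. Des ranged from 27617 CPM in patch 6 to 60183 in patch 2, against 215 in other cells, and Myf6 from 2607 to 5247 against 32.1. Of the 16 other muscle genes, Mylk3 was lower than in other cells in all 6 patches and Pln was higher in 3. These patches came from 1 section and are not replicates, and CPM of one patch cannot be read as that of a named muscle.

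Tnnc1, Ldhb and the rule gene Myoz2 were highest in patches 2 and 4. Tnnc1 had 18651 CPM in patch 2 and 15457 in patch 4, then 6855 in patch 5, 5143 in patch 6, 2557 in patch 1 and 356 in patch 3. Myoz2 followed with 26718 and 17052 CPM in patches 2 and 4 and between 6994 and 14650 in the others. Ldhb was likewise highest in patches 2 and 4, at 3681 and 3575 CPM, and lowest in patch 3, at 565. Other genes known from slow fibers shared this order in part. Car3 was highest in patch 2 at 40010 CPM, then in patch 1 at 37985 and patch 4 at 21553, and Prox1 was at 1220, 881 and 797 in the same patches. Pln, with 37 counts in all, was highest in patch 4 at 206 CPM, with 140 in patch 5, 75.8 in patch 1 and 44.8 in patch 2.
Actn3 and Pvalb, genes of fast fibers, belong to the rule, so their patch levels describe the selected cells. Actn3 had 61732 CPM in patch 1, 55490 in patch 3, 42617 in patch 2, 28181 in patch 6, 20010 in patch 4 and 12125 in patch 5. Pvalb was highest in patch 3, at 56726 CPM, and lowest in patch 5, at 12685, where 40.9% of the cells (34.9 to 47.2%) had no Pvalb transcript, compared with 11.4% (8.06 to 15.6%) in patch 3. Patch 2 thus held a high level of Tnnc1 together with 37381 CPM of Pvalb. Patch 5 spanned 573 by 216 µm and was lowest in Actn3 and Pvalb. It was also lowest in Ttn (73705 CPM), Trdn (16928), Sypl2 (10283) and Hrc (15016), but not in Des, Myf6 or Tnnc1. It had the highest Cryab, at 27118 CPM, and the highest Mustn1, at 9816 CPM. Gatm ranged from 6832 CPM in patch 5 to 21682 in patch 1 and Car3 from 12710 in patch 3 to 40010 in patch 2.

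**Figure D4:**
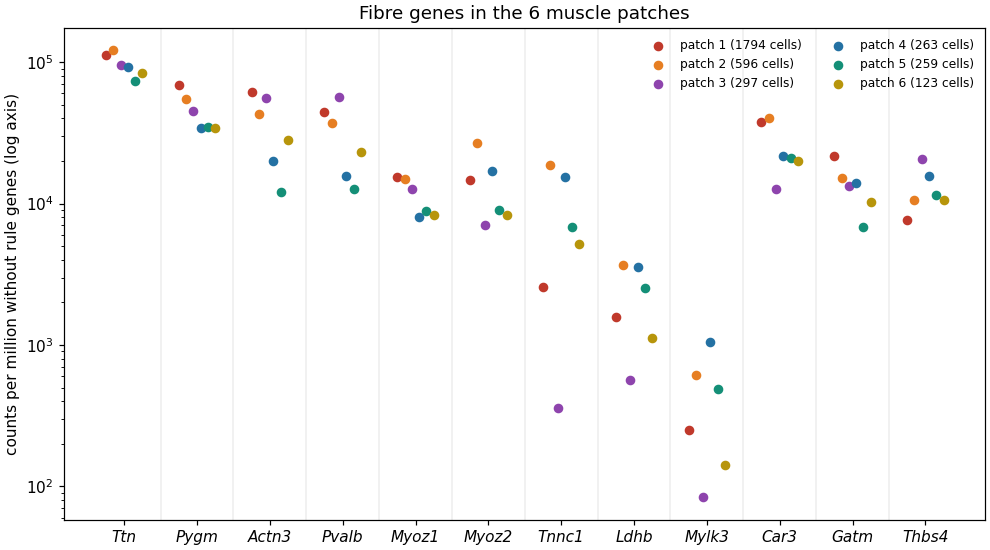
CPM (y, log axis) of 12 genes (x) in the 6 muscle patches, 1 point a patch with its number of cells. Tnnc1 spreads from 356 to 18651 CPM and Actn3 from 12125 to 61732, whereas Ttn stays between 73705 and 121462.

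On a finer grid, 59 squares of 100 µm held at least 20 muscle cells. Pvalb ran from 3754 to 96111 CPM over the squares with a median of 33402, Actn3 from 6883 to 112968 and Tnnc1 from 0 to 33296. As a description over the 59 squares, which share 1 library and the same denominator, Tnnc1 had Pearson's r of 0.60 (Spearman's rho 0.48) with Myoz2 and of -0.31 (rho -0.38) with Actn3, both of which are rule genes.

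Single cells showed the same genes side by side. With a split chosen after the values were seen, 336 muscle cells (9.31%, 8.38 to 10.3%) had at least 3 Tnnc1 counts and 2691 had none. Of the 1874 muscle neighbor positions within 30 µm of such Tnnc1 cells, 46.0% had at least 3 counts too. A cell can fill several of these positions, so no interval is given. The share of cells with at least 3 Tnnc1 counts was 28.9% in patch 2, 26.2% in patch 4 and 0.337%, 1 of 297 cells, in patch 3. Of the 336 Tnnc1 cells, 172 thus lay in patch 2 and 69 in patch 4. Of 211 genes outside the rule with at least 100 counts in both kinds of cell together, 5 (2.37%) were at least 2-fold higher in CPM over all genes but Tnnc1 and 9 (4.27%) at least 2-fold lower. The higher ones were Mylk3 (4.34-fold, 3.08 to 6.09), Ldhb (3.73-fold, 3.22 to 4.32), Tbx1, Etv1 and Fxyd6. Pln had 14 counts in the Tnnc1 cells and 17 in the far more numerous cells without Tnnc1, a ratio of 5.10 with a lower bound of 2.33. Car3, Cryab and Cox8b were 1.74-fold to 1.91-fold higher, under the fold. The rule genes are left out of these counts, since all cells compared were selected on their sum. As a description of the selected cells, the ratio was 2.76 for Myoz2, 0.929 for Pygm, 0.716 for Actn3 and 0.604 for Pvalb. A Pvalb transcript was present in 72.0% of the Tnnc1 cells (66.9 to 76.8%) and in 79.4% of those without. The 9 lower genes were Runx2 at 0.152, Acan at 0.389, Ccl2, Col8a1, Comp, Mmp9, Myh11, S100a9 and Vwf. Ldhb, Mylk3 and Myoz2 were also highest in patches 2 and 4. No comparison within a patch was made, so their ratios were not separated from the difference between patches. Tnnc1 cells were deeper, with a median of 157 counts outside the rule against 108, and whether an outline held 1 fiber or several was not tested.

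Within the outlines, transcripts of muscle genes were less often over the nucleus than those of other genes. Of the rule transcripts in muscle cells, 18.9% lay over the nucleus, and of those of the 16 other muscle genes 19.1%, compared with 28.2% for all genes on neither list in the same outlines, where the nucleus filled 15.1% of the median outline. In the other cells of the section, whose nuclei fill more of the outline, 51.6% of all transcripts were over the nucleus. Muscle genes differed among themselves: Cox8b was at 11.6%, Actn3 at 15.3%, Pvalb at 15.5%, Des at 16.3% and Ttn at 17.9%, but Hrc at 23.9%, Trdn at 26.7%, Myf6 at 27.9% and Ppargc1a at 45.5%. Ppargc1a and Myf6 encode nuclear proteins and Trdn and Hrc proteins of the reticulum, but a link between protein and transcript place was not tested. Prox1 at 48.5%, Chodl at 47.1% and Aqp7 at 50.4% were as nuclear as the endothelial genes Kdr at 45.6% and Gpihbp1 at 44.6%, whereas the creatine enzyme gene Gatm was at 21.4%. When only transcripts over the nucleus were counted, 1982 cells still passed the rule, 54.9% of the muscle cells.

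**Figure D5:**
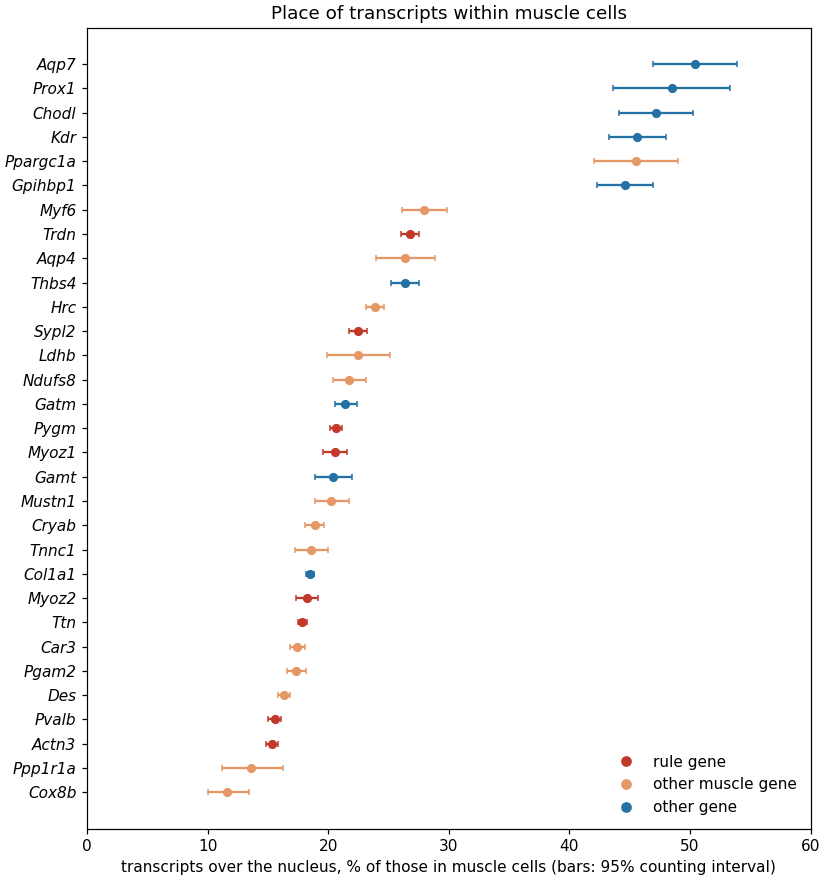
Share of the transcripts inside muscle cells that lay over the nucleus (x, %, with 95% counting intervals) for the rule genes, other muscle genes with at least 400 counts and 9 further genes (y). Cox8b is lowest at 11.6%, most muscle genes lie between 15% and 28%, and Ppargc1a, Prox1, Chodl, Aqp7, Kdr and Gpihbp1 lie above 44%.

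Of the rule transcripts 2.99% (2.90 to 3.07%) fell outside any cell, against 10.6% of all transcripts and 46.1% of those of Col1a1. Gene by gene the gap was smaller, with a median of 3.04% over the 8 rule genes and 4.10% over the 301 panel genes with at least 500 transcripts. Of the rule transcripts outside, 31.5% were within 30 µm of the center of a muscle cell and 58.0% within 100 µm.

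Nuclei of the muscle were elongated. The ratio of long to short axis had a median of 1.94 (quartiles 1.51 and 2.58) in muscle cells and 1.34 in the other cells, compared with 1.91 in cells gated on type I collagen and 1.26 in erythroid cells. Neighboring muscle nuclei were weakly aligned: the mean cosine of the doubled angle between their long axes, which is 1 for parallel nuclei and 0 for no alignment, was 0.259 over 9565 pairs, against 0.189 in other cells and 0.506 among collagen-I cells. Over all pairs of a patch it was 0.571 in patch 5 and between 0.187 and 0.274 in the others. Among pairs of nuclei with an axis ratio of at least 1.5 the order turned, with 0.388 in muscle and 0.620 in other cells. Within the patches, these elongated pairs were at 0.731 in patch 5 and between 0.230 and 0.416 in the others.

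Muscle cells with few muscle neighbors differed from those with none but muscle neighbors. The 2409 muscle cells with only muscle neighbors had a median of 40 rule counts and 111 other counts, whereas the 217 with fewer than 50% muscle neighbors had 8 and 174. Of these 217 cells, 122 lay outside the 6 patches and 49 had no muscle neighbor. The 982 cells in between had 21 and 128. Cox8b was 16.3-fold (8.83 to 34.1), Myf6 12.4-fold (8.07 to 20.05) and Hrc 7.81-fold (6.72 to 9.12) higher in the cells with only muscle neighbors than in the 217, and Des 5.36-fold. Thbs4 was lower in the cells with only muscle neighbors, at 8159 against 19298 CPM (ratio 0.423, 0.391 to 0.457). So were Igfbp6, an inhibitor of insulin-like growth factor, at a ratio of 0.256, and Chodl, at 1799 against 2935 CPM (0.613, 0.507 to 0.746). The cells in between were at 39778 CPM of Des, between 57812 and 10777 in the other groups. Because the 217 cells passed the rule with few counts, a part of the selection in these differences is possible and was not tested.

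Next to the muscle lay 1258 cells that did not pass the rule but shared an edge with a muscle cell. Of these, 82.9% (80.7 to 85.0%) were gated on type I collagen, against 13.4% of the 47728 cells away from the muscle. Fibroblast-gated cells made up 3.97% (2.96 to 5.21%) against 1.36%, and endothelial-gated cells 2.07% (1.35 to 3.01%) against 0.811%. The macrophage gate held 1.27% against 0.704% and the perivascular gate 0.636% against 0.163%. The erythroid gate held 1.27% (0.729 to 2.06%) against 55.7%, the neutrophil gate 0.238% against 10.7% and the cartilage gate 0.318% against 9.47%. A gate is the list with most counts, so these are shares of leading lists and not of cell types. Over all cells outside the muscle, the collagen pair had 8.41 counts per cell, the fibroblast list 1.94 and the endothelial list 1.37. With edges of at most 30 µm in place of 400 µm, 3 of 1095 cells next to the muscle were gated as erythroid (0.274%). In the neutrophil gate there were 0, which allows a share of up to 0.274%.

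Of 440 genes outside the rule, 118 (26.8%) were at least 2-fold higher in the cells next to the muscle than in those away from it and 173 (39.3%) at least 2-fold lower. The 10 highest included connective tissue genes and the muscle genes Des and Tnnc1. Chodl had 1648 CPM against 54.8, a ratio of 30.1 (25.5 to 35.6), and Thbs4 14705 against 634, a ratio of 23.2 (22.0 to 24.4). Mfap5 and Mfap4, which belong to the elastic microfibrils, were 19.5-fold and 12.8-fold higher, and Dpt, which organizes collagen fibrils, 12.7-fold. Igfbp6 was 17.2-fold, the matricellular gene Ccn3 14.3-fold and the stem and progenitor antigen gene Ly6a 10.2-fold higher. Des and Tnnc1 were 25.3-fold and 9.97-fold higher, with 0.418 Des counts per cell next to the muscle and 6.70 within it. Rule transcripts were present in 66.1% of the cells next to the muscle, at 1.43 per cell, and in 6.01% of those away from it, and their source was not tested. The 5 lowest were Mrgpra2a, Fcnb, Gata1, Ctse and Lipg. Lipg had 0 counts next to the muscle and 954 elsewhere and was at least 9.19-fold lower, taking 3 counts over the group as the floor, and the ratios of the other 4 were between 0.0230 and 0.0416.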

How the data were processed

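Xenium sections of 6 mouse tissues were available, of which the P8 bone marrow section is described. The authors deposited transcript counts per gene and cell, without normalization, a quality score per transcript, and positions, areas and nucleus outlines in µm; the run description names Xenium analysis software 1.7.1.0, whereas the methods name Space Ranger. Counts rebuilt from transcripts with a quality score of at least 20 equaled the deposited counts exactly. The total was 6446659 counts, with a median of 109 per cell.

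Members, gene lists and gates were chosen with earlier results of these data known. All cells were kept; doublets were not called. Ratios compare summed CPM over genes outside the rule (at least 100 counts, called at 2-fold), with 95% exact binomial or Poisson intervals; no test was run. A cell took the gate of the marker list with most counts, if at least 5 and without a tie. One marker list is not reported here. The named genes were the 8 rule genes, 16 other muscle genes, up to 4 per marker list, and the 10 highest and 10 lowest ratios with at least 500 counts (10 and 5 next to the muscle). Python 3.11.15, NumPy 2.4.6, SciPy 1.17.1 and pandas 2.3.3 were used. The ratio calculation was also run on simulated Poisson counts of pooled cells, which hold no spread between cells and so check the arithmetic only. The P8 section shared between 0 and 3 cell barcodes with each other section. Other thresholds, scalings, thinning to 50 counts, edge lengths and square sizes were tried as alternatives.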

Additional observations from a re-analysis of the deposited data

Results flagged for a closer look

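The same rule found a few cells in sections that the comparisons did not use. The untreated spleen and the E14.5 fetal liver were flagged for having more than 3. The same number was taken as the limit that a count of 0 allows. In the untreated spleen 7 of 108338 cells passed, with 5 to 8 summed counts; 6 of them held Des, 4 held Trdn, none of them held Ttn, and 3 passed on a single rule gene. In the E14.5 fetal liver 4 of 117329 cells passed with at most 6 summed counts, 2 of them on a single rule gene. Ttn was present in 2 of the 4 cells and Des in 2, and their overlap was not counted. The PHZ-treated spleen had 1 cell that passed. The E13.5 fetal liver and the bone marrow at 89 weeks had 0, which allows shares of up to 0.0568% and 0.00209%, on a panel with 4 of the 8 rule genes.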

How the results depend on the processing

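The number of muscle cells depended on the rule: it was 4020 with at least 3, 3157 with at least 10 and 2489 with at least 20 summed counts, 1982 with transcripts over the nucleus only, 3322 without Ttn, 3523 without Pvalb and 3336 with Ttn, Pygm and Actn3 alone. Apart from the threshold of 3, each of these sets lies within the 3608 cells by construction. The count of higher genes was between 85 (of 358 described genes) and 144 (of 412) over 12 alternatives. The count of lower genes was between 119 and 220 (of 447), and was 119 with a minimum of 500 counts, where 286 genes were left. Of 26 named genes, 25 kept their side of the 2-fold limits under all 12 alternatives, and Ndufs8 ranged from 1.40 to 2.18. The 2 count minimums among these cannot move a ratio, and under the other 10 the ratios of 20 of the 26 genes moved by over 1.5 times. The lowest and highest were 123 and 456 for Pgam2, 115 and 380 for Des, 114 and 388 for Cox8b, 7.19 and 26.1 for Cav1 and 5.02 and 19.4 for Thbs4, the lowest each against the cells with collagen counts, an alternative chosen after seeing the data. With 10 summed counts, the share of muscle neighbors was 85.6%, the median count 159 and the median area 124 µm²; with edges of up to 30 µm the share was 89.3%. Alignment was 0.388 among nuclei with an axis ratio of at least 1.5, where that of other cells was 0.620 and thus higher than in muscle. The share of rule transcripts outside cells was 3.29% at a quality score of at least 30. Over 29 squares of 200 µm, which hold the same cells, Pearson's r with Tnnc1 was 0.64 for Myoz2 and -0.31 for Actn3. Thinning left out 313 muscle and 7493 other cells. No paired analysis was possible because each condition has 1 section. Depth limits genes such as Pln, with 37 counts in the muscle, and the absence of a second animal leaves the spread between animals unmeasured.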
